A study of Caenorhabditis elegans with 2 samples.

Results

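The genes hsp-6 and hsp-60 of the nematode Caenorhabditis elegans encode 2 major chaperones of the mitochondrial matrix. Both genes were found by whole name in the gene-name column of a deposited list of 1005 ATFS-1 peaks, and each was named at 1 peak, so 2 of the 1005 peaks are described here. Neither peak carried a second gene name. The list came from chromatin immunoprecipitation followed by sequencing (ChIP-seq) of whole-worm lysates of wild-type worms. All worms were raised from eggs on bacteria that silence spg-7 by RNAi and were collected as L4 larvae after about 48 h. One library was precipitated with an antibody against ATFS-1 and the other was carried through without antibody, so both groups share genotype, RNAi food and stage and differ in the antibody. There was 1 library per condition, worms without spg-7(RNAi) are not analysed here, and none of the values below has a replicate error or shows a response to the RNAi.

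HSP-6 belongs to the HSP70 class of ATP-driven chaperones, which bind unfolded stretches of proteins and help to draw them into the matrix. HSP-60 is a chaperonin, a ring-shaped complex that encloses a protein while it folds. ATFS-1 is a bZIP transcription factor that is imported into healthy mitochondria and degraded there. When import fails it moves to the nucleus and starts the mitochondrial unfolded protein response (UPRmt), for which reporters of hsp-6 and hsp-60 are the standard readouts in worms. SPG-7 is a mitochondrial protease whose loss sets off this response.

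The 2 chaperone genes had very different peaks. The hsp-6 peak was among the 10 highest in fold, tags, tags per kb and score, whereas the hsp-60 peak had the most antibody tags of any peak and yet a fold enrichment only a little above the median. Fold enrichment is the peak caller's ratio of antibody signal to the level expected from the no-antibody control. All folds, tags, scores and false discovery rates came from the authors' caller, and they describe and rank peaks within this list only.

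The hsp-6 peak spanned 4940 bp of chromosome V, from 4823219 to 4828158, in coordinates of a genome build that no header or label names. It held 2186 antibody tags (95% Poisson interval 2095 to 2280, counting error only), the 10th highest count of the list, and was the largest peak by tags on its chromosome. Its fold enrichment of 11.85 was the 5th highest of all peaks and the 3rd highest of the 161 peaks on chromosome V, where the median fold was 3.30. It was 1 of 137 peaks at a fold of at least 5 (13.6% of the list) and 1 of 11 at a fold of at least 10 (1.09%). The score, read as -10 times log10 of the caller's p-value, was 3100, a value that 4 peaks shared exactly and 2 peaks exceeded. Whether this round, shared value was computed or set by the caller is not given. The order of hsp-6 among those 4 and against those 2 can therefore not be read. Its false discovery rate was 0, as it was for 15 of the 1004 peaks with a listed rate (1.49%), and 32 of these 1004 stood at 5% or less (3.19%).

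The hsp-60 peak spanned 6399 bp of chromosome III, from 1615912 to 1622310, and was the 11th longest of the list. It held 4741 antibody tags (95% Poisson interval 4607 to 4878), against 3788 at the next peak, which was named mnk-1 and was 11562 bp long. Its fold enrichment was 3.79, which ranked 304th of 1005, and 69.7% of peaks had a lower fold. The list median was 3.26 and the quartiles were 2.75 and 4.04. Its score of 1084.95 ranked 51st. Directly above it by fold stood F25H2.5 (3.81-fold, 365 tags), and C34C12.1 shared its fold of 3.79 with 248 tags. Peaks of about this fold also included some with many tags, such as ubq-1 (3.66-fold, 2260 tags) and F22D6.2 (3.65-fold, 2077 tags), both named after their values were seen.

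Both peaks also stood high once their length was divided out. Per kb of region, hsp-60 had 741 tags (95% Poisson interval 720 to 762), the highest density of the list, and hsp-6 had 443 (424 to 461), the 4th highest. Between them stood the peak named gpd-2, mai-1 and gpd-3, with 471 tags per kb, and that of yme-1, an older name of the mitochondrial protease gene ymel-1, with 458. cyc-2.1, a cytochrome c gene, followed hsp-6 with 419. The median peak had 204 tags per kb. The density at hsp-60 was 1.57 times that of the next peak and 1.67 times that of hsp-6 (exact 95% interval 1.59 to 1.76, counting error only), while the fold at hsp-6 was 3.13 times that at hsp-60. The 2 members therefore stood in opposite order by density and by fold.

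**Figure D1:**
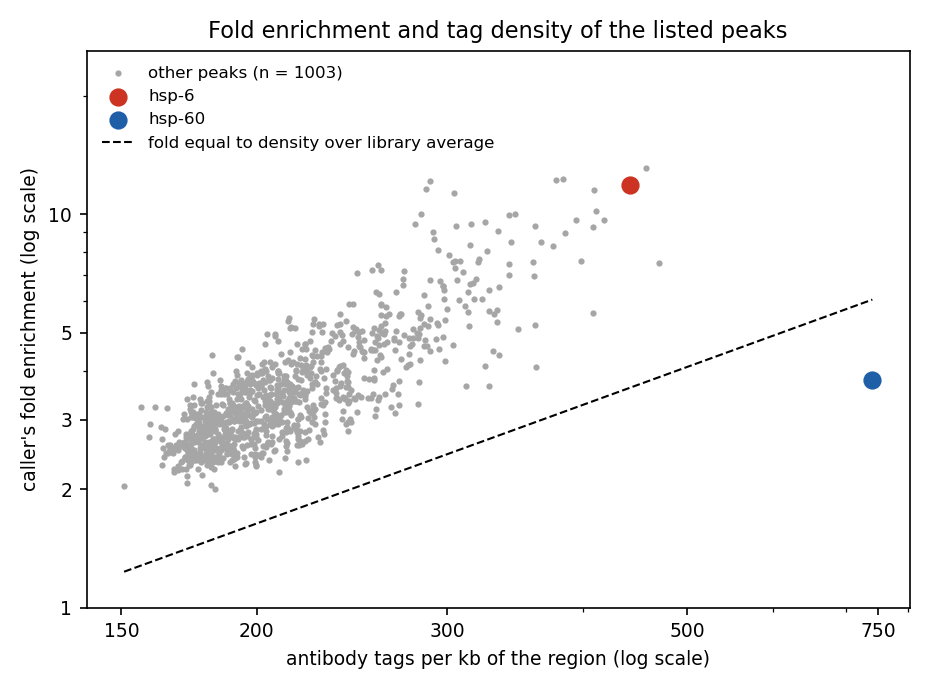
Each point is 1 of 1005 listed peaks, with antibody tags per kb of the region on the horizontal axis and the caller's fold enrichment on the vertical axis, both on log scales; the dashed line is where the fold equals the region's tag density over the average of the antibody library. hsp-6 (443 tags per kb, 11.85-fold) lies with the other high peaks, and hsp-60 (741 tags per kb, 3.79-fold) is the single point under the line.

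Across the 1005 peaks, tag density and fold rose together (Spearman rho 0.77, a description across peaks of the same pair of libraries, which are not replicates, and both values use the same tags). hsp-6 was high in both, with a fold above that of most peaks of like density. Among the 20 peaks nearest to hsp-6 in tags per kb (349 to 471), folds ran from 4.10 to 13.08 with a median of 8.74, and 17 of them were lower than hsp-6. hsp-60 did not follow the relation of density and fold. The 20 peaks nearest to hsp-60 in tags per kb, from 360.0 to 471, were the next densest of the list, hsp-6 among them. They were largely the same peaks that were set beside hsp-6. Their folds ran from 4.10 to 13.08 with a median of 9.12, and none was as low as 3.79.

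The same contrast appeared when densities were set against the antibody library as a whole, which averaged 122 tags per kb over the caller's effective genome size. The hsp-60 region lay at 6.07 times that average and the hsp-6 region at 3.62 times. The caller's fold was 0.625 times this ratio at hsp-60 and 3.27 times at hsp-6. The median peak stood at 1.95 and the next lowest, at the collagen gene col-71, at 1.29, so hsp-60 was the 1 peak of 1005 whose fold lay below its own density over the library average. Unlike tags per kb, the fold is measured against the control, and so is the caller's score, by which hsp-60 ranked 51st. Tags per kb divided by fold came to 195 at hsp-60 and 37.3 at hsp-6, against a median of 62.5. By this quotient, 97.7% of the listed peaks lay above hsp-6. Tags per kb is a mean over the whole region, and how the caller took the antibody signal in its fold is not given. The quotient may therefore mix peak shape and length with control level. Control tags in each region are not analysed here, so the part of a high control level in the fold of hsp-60 was not tested.

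Peaks of like length and like tag count were compared next. The 20 peaks nearest to hsp-6 in length (4373 to 5456 bp) had folds from 2.38 to 11.61, with a median of 4.34 and all below hsp-6. Of these, 19 also had fewer tags per kb. In the whole list 99.5% of peaks have a lower fold than hsp-6 and 99.6% fewer tags per kb, so these counts were nearly fixed. The 20 nearest to hsp-60 in length (4940 to 7178 bp, hsp-6 among them) had a median fold of 4.90, with 5 below hsp-60. Their tags per kb ran from 196 to 471, all lower because hsp-60 has the highest density of the whole list. The 20 nearest to hsp-60 in tags (1537 to 3788, hsp-6 among them) had folds from 3.50 to 12.21 with a median of 6.13. Of these 20, 4 were below hsp-60. The 20 nearest to hsp-6 in tags, from 1391 to 2419, had a median fold of 6.84. Of these 20, 19 were below hsp-6, again nearly fixed by its rank of 5th by fold. Among the 320 peaks of at least 2000 bp, hsp-6 ranked 4th by fold and 3rd by tags per kb. In the same set hsp-60 ranked 138th by fold and, as it must in any set, 1st by tags per kb.

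**Figure D2:**
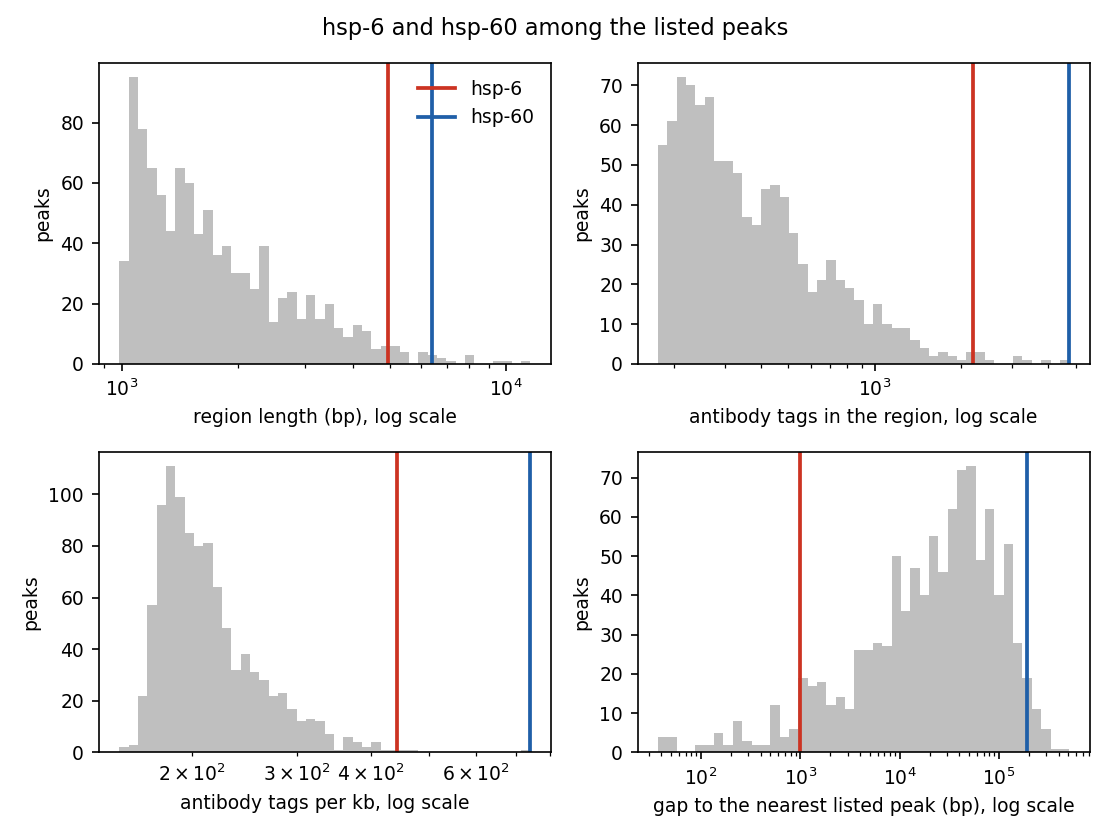
Histograms of the 1005 listed peaks by region length, antibody tags, antibody tags per kb and gap to the nearest listed peak on the same chromosome, each on a log scale, with hsp-6 as a red and hsp-60 as a blue line. Both members lie in the right tail of length, tags and density, and at opposite ends of the gaps (998 bp for hsp-6 and 190877 bp for hsp-60).

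In each library a position could contribute at most 1 tag, which sets a ceiling on density. If positions on both strands are counted, tags filled 37.0% of the possible positions of the hsp-60 region, 22.1% of those of hsp-6 and 10.2% of those of the median peak. The next fullest region stood at 23.5%. Of all reads, 40.0% were removed as repeats of a position in the antibody library and 20.3% in the control, which left 10992796 and 10583049 tags. How many repeats fell in these 2 regions is not analysed here. The hsp-60 region held 0.0431% of the filtered antibody library and 1.03% of all tags in listed peaks, and hsp-6 0.0199% and 0.477%, where an even split would give each peak 0.0995%.

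The hsp-60 peak was the only one of 1005 with no false discovery rate in the list. The 20 peaks around it in score rank, 10 above and 10 below (scores 966 to 1243), had rates from 7.58% to 11.1% with a median of 9.01%. Their tag counts ran from 668 to 1783, all below that of hsp-60, which has the most tags of the whole list. No rate is given for hsp-60 here, since the list has none.

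The summits were placed differently within the regions. At hsp-60 the summit lay 3245 bp from the start, near the middle of the region at 50.7% of its length, where the median peak had 51.2%. At hsp-6 it lay 3881 bp from the start, at 78.6% of the length, which left 1059 bp to the end of the region. Of all listed peaks, 96.4% had a summit nearer to the start by this measure. The start is the lower coordinate whatever the strand of the gene. Summits also lay off centre towards the start, and the list ran from 9.10% to 89.4%. The chromatin had been sheared to fragments of 500 to 1000 bp per the labels, and both regions were several fragments long. The place of the summits relative to promoters, exons and introns is not analysed here, because no genome in the build of the list was used.

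The 2 peaks also differed in their surroundings. hsp-6, whose locus name in the gene table is C37H5.8, stood in a group of 4 peaks with locus names that begin with C37H5. The peak before it, listed as C37H5.6 and named adss-1 in the gene table (adenylosuccinate synthetase, an enzyme of purine synthesis), ended 998 bp before the hsp-6 region and had a fold of 4.12 with 638 tags. After hsp-6 came C37H5.3, named abhd-5.2 in the gene table, at a gap of 15851 bp (3.57-fold, 768 tags). Next came C37H5.13, 34206 bp beyond the end of hsp-6 (6.80-fold, 379 tags). All 3 were lower in fold and in tags than hsp-6, as were 99.5% of all listed peaks in fold and 99.0% in tags. Of the list, 59 peaks (5.87%) had a neighbour as near as that of hsp-6, and the median gap to the nearest peak was 27036 bp.

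Of the 31 pairs of adjacent peaks within 1000 bp of each other, the folds of hsp-6 and C37H5.6 differed by a factor of 2.88. This was the second largest factor after that of the pair at abts-4, and the median was 1.51. As hsp-6 ranks 5th of all peaks by fold, its factor would be large beside most peaks. Its gap of 998 bp also lies just within the limit of 1000 bp. The second peak before hsp-6 was that of the glucuronosyltransferase gene ugt-61 (3.10-fold, 189 tags), 80342 bp away. Within 50 kb of the hsp-6 summit on either side lay 3 other summits. As many or more were found around 156 peaks (15.5%).

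hsp-60 had no other summit within 50 kb, as was the case for 333 of the 1005 peaks (33.1%). The peak before it, at Y82E9BR.16 (3.78-fold, 205 tags), lay 190877 bp away, and the peak after it, at Y39A3CL.7 (2.68-fold, 255 tags), lay 236970 bp away. The second peaks on either side were at Y82E9BR.3 (3.41-fold, 580 tags) and F53A3.6 (3.28-fold, 1118 tags). The gap to its nearest peak was the third longest of the 187 peaks on chromosome III, where the median was 22330 bp, and the 29th longest of the list. Its nearest neighbour had almost the same fold as hsp-60 and 185 tags per kb against 741.

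**Figure D3:**
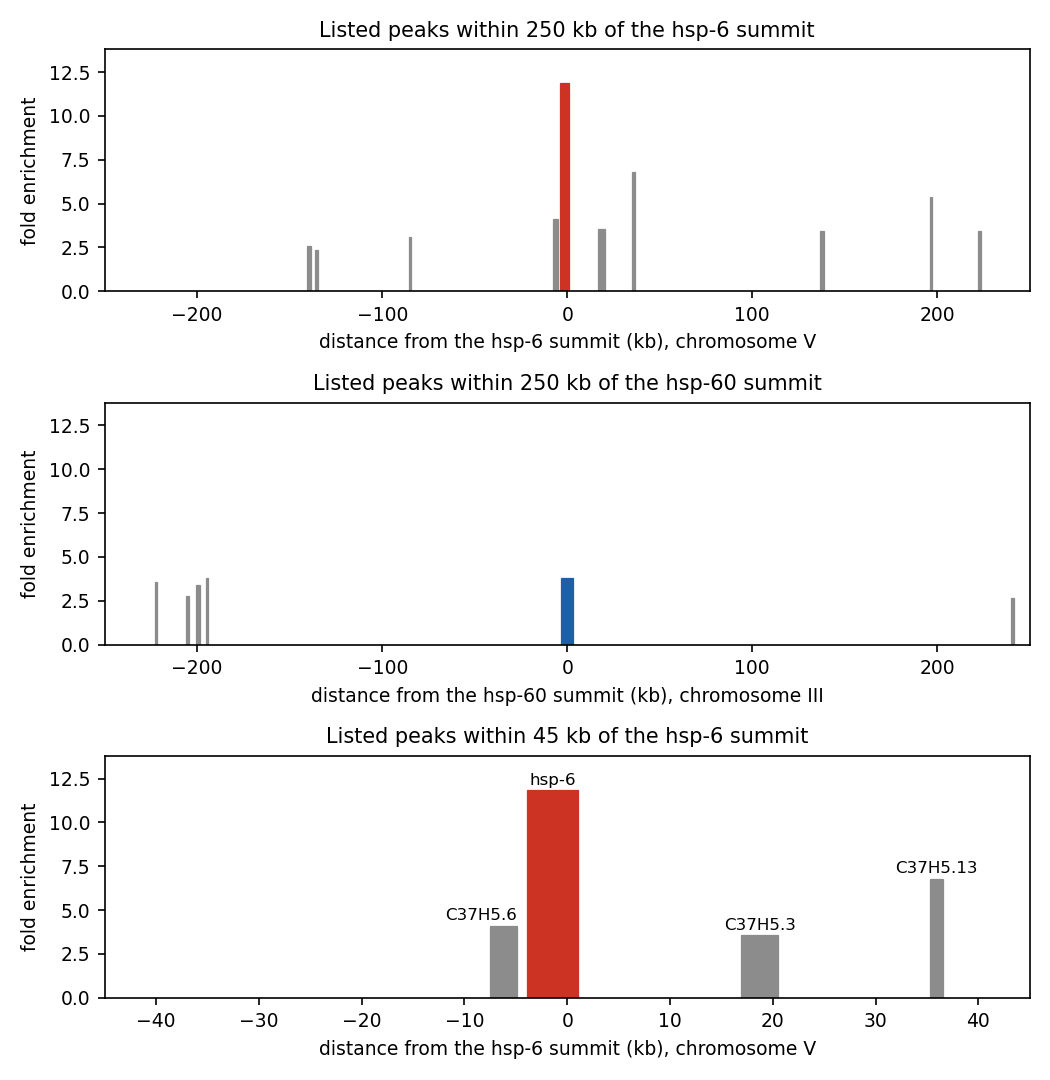
Listed peaks around hsp-6 (red) and hsp-60 (blue), drawn to scale along the chromosome as distance from the member's summit in kb, with the caller's fold enrichment as bar height; the bottom panel enlarges hsp-6. hsp-6 at 11.85-fold stands in a group with C37H5.6, C37H5.3 and C37H5.13, and no other listed peak lies within 190877 bp of the hsp-60 region.

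Gene order was taken from the RefSeq gene table of assembly WBcel235, by name only. Of the 5 protein-coding genes on each side of hsp-6, 1 of 10 was named at a peak, namely adss-1, its direct neighbour. The gene on its other side, C37H5.5, was not named. Of the 10 genes around hsp-60 none was named at a peak, including its direct neighbours Y22D7AL.10 and Y22D7AL.4. Among all protein-coding genes, 902 of 19971 (4.52%) were named at a peak. Counts out of 10 are too small to set against that share or to tell hsp-6 and hsp-60 apart. No header or label says how the names were chosen, so a gene that is not named may still lie under a region.

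Among the related genes named at a peak, hsp-6 had a higher fold than all but ymel-1. hsp-60 had more tags per kb than all others, as it did in the whole list. Lists of related genes were written for this work with earlier results of these data known. They were matched to the gene table, in which 902 of 19971 protein-coding genes (4.52%) were named at a peak. Of 5 genes other than the members in a list of mitochondrial chaperones and their partners, 1 had a peak, a count too small to set against that share. This was C34C12.8 on chromosome III (8.50-fold, 748 tags), whose fold lay between those of hsp-6 and hsp-60. The genes hsp-75, dnj-10, dnj-21 and Y22D7AL.10 were not named at a peak. Y22D7AL.10 is a direct neighbour of hsp-60, and whether it lies under the hsp-60 region is not known, because the genome build is not named.

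Among HSP70-class genes, 3 of 8 besides hsp-6 were named at a peak, a count too small to set against the 4.52% of all protein-coding genes. F44E5.4, a heat-inducible HSP70 gene, had 6.55-fold and 421 tags, but its copy F44E5.5 is so similar in sequence that reads may not separate them, and this peak is uncertain. hsp-1, the constitutive cytosolic HSP70, had 5.11-fold and 1792 tags over 5135 bp, with a false discovery rate of 0. hsp-3, an HSP70 of the endoplasmic reticulum, had 4.74-fold and 392 tags. The genes hsp-4, hsp-70, hsp-110, stc-1 and F44E5.5 were not named. hsp-6 and hsp-1 were of like length, and hsp-6 had 443 tags per kb against 349.

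Among chaperonin genes, 3 of the 8 cct genes, which encode the cytosolic ring, were named at a peak. This count is too small to set against the 4.52% of all protein-coding genes. cct-7 had 3.43-fold and 369 tags, cct-1 3.23-fold and 512 tags, and cct-5 2.94-fold and 247 tags, and the first 2 shared their peak with another name. Their folds were close to that of hsp-60, but their densities were 177 tags per kb at cct-5, below the first quartile of the list (185), 193 at cct-1 and 205 at cct-7, against 741 at hsp-60 and a list median of 204.

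Of 10 other genes in a list of the UPRmt, 4 were named at a peak, too few to set against the 4.52% of all protein-coding genes. The RNAi target spg-7 had 9.44-fold. phb-1, at a peak also named Y37E3.8, had 4.97-fold and phb-2 had 3.91-fold. Both encode prohibitins, scaffold proteins of the mitochondrial inner membrane. atfs-1 itself had 3.62-fold and 281 tags. With the older name yme-1 read as ymel-1, this gene joined them at 13.08-fold. The genes clpp-1, dve-1, haf-1, lonp-1 and ubl-5 were not named. hsp-6 was exceeded in fold by ymel-1 alone in this list, and hsp-60 exceeded atfs-1 alone. The median fold of the 4 genes matched by name, with the members and ymel-1 left out, was 4.44 beside 3.26 for all peaks. In a short list of small heat shock genes, 0 of 5 (hsp-16.1, hsp-16.2, hsp-16.41, hsp-16.48 and hsp-12.6) were named, a count too small to set against the 4.52% of all genes. The list leaves out hsp-25, another small heat shock gene, which had a peak of 9.06-fold and was named after its values were seen.

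**Figure D4:**
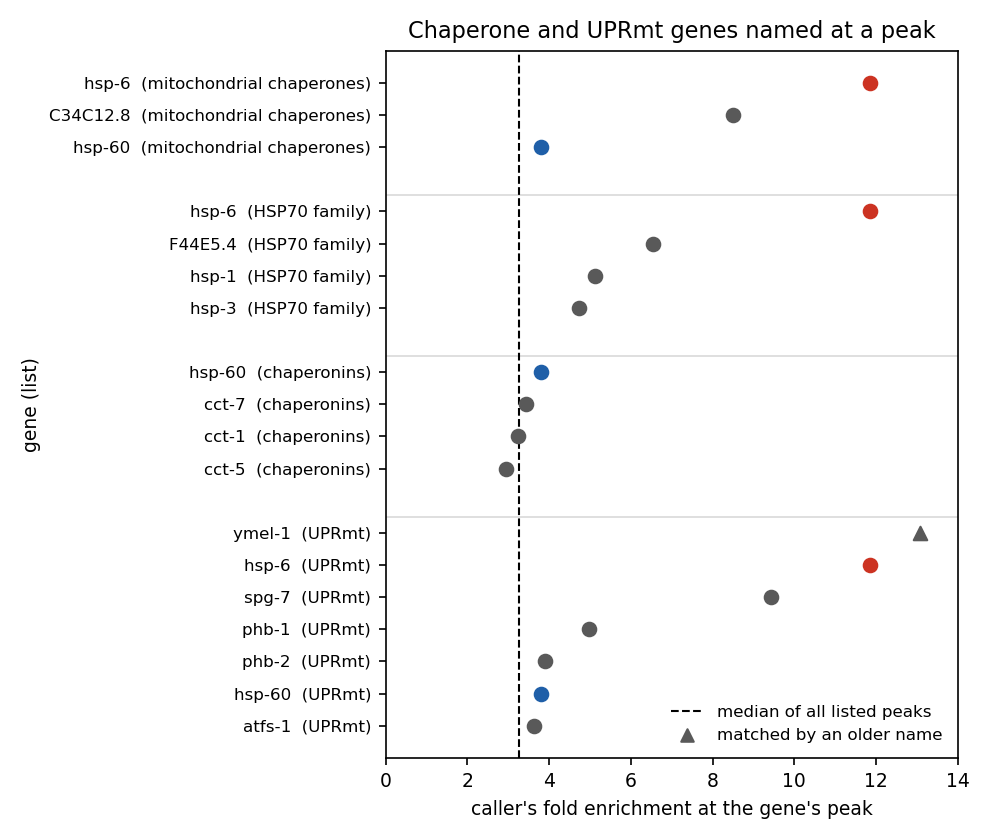
Fold enrichment at each gene of the 4 lists that was named at a peak, with hsp-6 in red, hsp-60 in blue, other genes in grey, a triangle for the gene matched by an older name, and the median of all listed peaks (3.26) as a dashed line. hsp-6 at 11.85 leads the mitochondrial chaperones and the HSP70 family and follows ymel-1 in the UPRmt list, while hsp-60 at 3.79 lies near the median line with the cct genes.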

How the data were processed

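ChIP-seq of 1 antibody and 1 no-antibody library had been summarised in 1 deposited peak list. Per the file headers, the authors called peaks with MACS 1.4.2 (effective genome size 90000000 bp, p cutoff 1e-05, tags of 50 bp with a fragment size of 200 bp, no repeated positions, background windows of 1000 and 10000 bp, larger library scaled towards the smaller). Per the submitters' processing notes, BWA 0.7.5 and Picard were used besides MACS 1.4. No header or label gives a genome build. The deposited values are tag counts, fold enrichment, a false discovery rate in percent, and a score whose heading was lost. The deposited score was read as -10 times log10 of the caller's p-value from the column order and its smallest value of 50.06. The header places the libraries in different project folders, so project and antibody cannot be told apart. Filtered depth was 10992796 and 10583049 tags.

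Names were split at slashes and matched whole, case ignored. Of 1033 names in the list, 917 (88.8%) matched a protein-coding gene of the RefSeq table of WBcel235 on the same chromosome. Tags per kb, ranks, gaps and exact 95% intervals were computed with Python 3.11.15, pandas 2.3.3 and scipy 1.17.1, and the ranking and gap steps were checked on simulated data. With 1 library per condition no test was run. Promoter motifs had been planned but are not analysed here, for want of sequence. Named genes were the members, the nearest peaks in position and in rank, and the genes of the lists; a few others at the top of a ranking were named after their values were seen. Members and lists were chosen with earlier results of these data known. Alternatives were subsets of the peaks, other distances and older names.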

Additional observations from a re-analysis of the deposited data

How the results depend on the processing

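No paired analysis was possible because there is 1 library with and 1 without antibody, and leaving either out leaves no comparison. hsp-60 ranks 1st of all peaks by tags and by tags per kb, so it is 1st in any subset and its percent moves with the number of peaks alone. These 10 of the 40 alternatives say nothing about stability. Of the other 30, 17 left the value within its exact 95% interval or, for counts and distances, within 1.5 times, and 13 did not. For the percents this interval is binomial over the listed peaks, which are not independent samples. It served as a yardstick for change and measures no error. The value tracked is the percent of peaks below the member. For hsp-6 it was 99.5 by fold, 99.005 by tags and 99.6 by tags per kb. Among peaks of 2 kb or longer it was 98.75 by fold and 96.9 by tags, and among peaks at or above the median score 98.01 by tags. Among the 32 peaks whose false discovery rate is at most 5% it was 87.5, 71.9 and 90.6 in that order; these sets hold fewer low peaks by construction. For hsp-60 the percent by fold fell from 69.7 to 46.1 at or above the median score, 56.9 at 2 kb or longer and 6.06 among those 32 peaks with hsp-60 added, where the percent of 97.0 by tags and by tags per kb is fixed by the size of the set, 33 peaks. On autosomes only, a choice made after seeing the data, the 4 percents that could change stayed within their intervals. Searched as part of a name, hsp-6 gave 2 peaks, since hsp-60 holds the same letters. Between summits, the nearest neighbour of hsp-6 was 6992 bp away rather than 998 bp between edges. The percent of peaks below hsp-6 in tags over fold was 2.19 per kb and 85.8 without the length; the long region moves it by construction. Counting peaks from the median fold upwards, 2 of the 4 chaperonin genes remained. Promoter motifs were not run. Without replicates, the intervals of tags, of tags per kb and of their ratio cover counting error only.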

Other observations

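The dnj genes encode J-domain proteins, which stimulate HSP70 chaperones, and were looked at after the values were seen. Of 29 dnj genes in the gene table, 8 were named at a peak (27.6%, beside 4.52% of protein-coding genes), 4 of them at a peak with another name. Their folds ran from 2.93 at dnj-12 to 3.82 at dnj-14 with a median of 3.30, close to the median of all peaks and far below hsp-6. The hsp-25 peak on chromosome X held 438 tags over 1312 bp. Its tags per kb divided by fold came to 36.8, next to hsp-6 at 37.3.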
